A study of Mus musculus with 8 samples.

Results

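Arg1 macrophages, cells of the monocyte lineage that carry Arg1 and Fn1 transcripts, were examined in mouse brain after a stroke made by blocking the middle cerebral artery for a limited time. They were chosen by transcript content in single cells with at most 10% mitochondrial molecules (unique molecular identifiers, UMIs). A member had at least 5 Arg1 UMIs per 10000 UMIs, under 10 per 10000 of a microglial sum (P2ry12, Siglech, Gpr34, Sparc, Olfml3, Fcrls), under 20 of Gpnmb and Fabp5 together and under 50 of the MHC class II genes H2-Aa, H2-Ab1 and H2-Eb1. It also had at least 2 UMIs of Fn1, Vcan, Ccr2 and F13a1 together, at most 2 UMIs of Csf3r and 0 of Cd3e and Cd79a. The rule chose 1853 of 39608 cells kept, out of 39945 deposited.

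The study asked what loss of Prdx1, a thiol peroxidase that reduces hydrogen peroxide, does after stroke and reperfusion. Male C57BL/6J mice aged 8 to 9 weeks, labelled Prdx1-/- or WT, all underwent a 60 min occlusion, so no library came from an unoperated brain. Live cells were sorted from the ipsilateral (occluded) and contralateral hemispheres at 48 h and at 24 h, and there was 1 library for each of the 8 combinations of label, hemisphere and time. The number of animals behind a library is not given in the sources used here, so each p-value measures the spread between these 8 libraries.

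Arginase 1, the product of Arg1, splits arginine into ornithine and urea and so competes with nitric oxide synthase for its substrate. In monocytes that enter injured tissue the gene is known to be switched on by cytokines that act through STAT6, by hypoxia and by the uptake of dying cells. Macrophages of this kind are known for chemokines, matrix proteins such as fibronectin (Fn1) and the angiogenic factor Vegfa.

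The libraries held between 4189 and 5759 deposited cells and between 39433266 and 70111421 UMIs. Arg1 macrophages had median depths of 15173 to 18857 UMIs, and any 2 libraries shared 3 to 17 cell barcodes. Prdx1 itself did not follow every label in these cells. At 48 h ipsilaterally it stood at 10.7 CPM (UMIs of the gene per 1000000 UMIs of the members) in the library labelled Prdx1-/- and at 1210 CPM in the one labelled WT. At 24 h the values were 426 CPM under the Prdx1-/- label and 539 CPM under the WT label. Contralaterally Prdx1 reached 8.61 and 235 CPM in the libraries labelled Prdx1-/- at 48 h and 24 h, against 842 and 695 CPM under the WT label. The libraries labelled Prdx1-/- at 24 h therefore hold Prdx1 transcripts, and every direction by genotype below is between libraries as labelled.

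Windows around the start of 5 genes on which the results below turn are shown for sequence context. The genes are 2 chemokine genes and 2 of glucose metabolism that were higher in Arg1 macrophages than in Arg1-low cells, and Il6, which differed by genotype label. The windows are from RefSeq, with 300 bases on GRCm38.p6, 250 before and 50 after the start, printed 5′ to 3′ along the gene. Capitals mark ACGTG, a core to which hypoxia-inducible factors bind, and TGANTCA, the AP-1 motif, each on either strand.
Cxcl3, chr5:90785851-90786150, plus strand: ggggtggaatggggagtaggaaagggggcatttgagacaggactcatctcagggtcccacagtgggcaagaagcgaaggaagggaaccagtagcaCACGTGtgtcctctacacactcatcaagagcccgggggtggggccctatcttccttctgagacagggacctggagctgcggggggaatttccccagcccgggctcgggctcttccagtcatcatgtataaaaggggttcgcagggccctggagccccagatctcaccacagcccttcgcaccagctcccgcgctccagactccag
Pf4, chr5:90772185-90772484, plus strand: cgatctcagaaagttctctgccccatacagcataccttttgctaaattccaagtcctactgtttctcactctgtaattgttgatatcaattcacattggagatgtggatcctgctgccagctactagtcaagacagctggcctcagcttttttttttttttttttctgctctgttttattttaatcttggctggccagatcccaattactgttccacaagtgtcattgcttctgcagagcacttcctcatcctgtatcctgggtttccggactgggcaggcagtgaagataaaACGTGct
Pgk1, chrX:106186850-106187149, plus strand: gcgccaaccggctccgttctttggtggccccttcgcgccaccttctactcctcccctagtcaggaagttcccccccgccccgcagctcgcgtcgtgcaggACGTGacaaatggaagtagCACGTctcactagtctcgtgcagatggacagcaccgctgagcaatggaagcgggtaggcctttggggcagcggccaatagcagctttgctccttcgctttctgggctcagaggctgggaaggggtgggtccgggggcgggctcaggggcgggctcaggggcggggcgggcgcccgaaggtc
Slc2a1, chr4:119108495-119108794, plus strand: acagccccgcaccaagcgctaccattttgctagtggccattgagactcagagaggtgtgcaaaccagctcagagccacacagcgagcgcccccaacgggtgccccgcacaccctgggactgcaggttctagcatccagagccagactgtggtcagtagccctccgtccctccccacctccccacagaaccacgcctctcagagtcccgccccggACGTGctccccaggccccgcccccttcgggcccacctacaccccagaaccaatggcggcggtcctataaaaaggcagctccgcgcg
Il6, chr5:30012864-30013163, plus strand: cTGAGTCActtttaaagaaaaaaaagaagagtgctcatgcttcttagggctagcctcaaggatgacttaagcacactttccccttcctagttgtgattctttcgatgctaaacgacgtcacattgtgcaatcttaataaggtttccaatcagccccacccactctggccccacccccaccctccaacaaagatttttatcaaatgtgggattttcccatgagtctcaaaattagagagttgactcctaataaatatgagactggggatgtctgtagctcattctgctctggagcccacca

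Of all 32851 windows of this length in the table, 19.6% hold ACGTG on either strand and 7.81% hold TGANTCA. The Cxcl3 match is the palindrome CACGTG, which counts once on each strand, and Pgk1 has 2 separate matches. The Pf4 match begins at base 294 of its window and so lies after the start. For a hypoxia list (20 genes known to respond to low oxygen) 17 genes had a window, and 15 of their 24 windows held ACGTG. For a glycolysis list all 17 genes had one, and 14 of 25 windows held it. For a chemokine list 12 of 18 genes had a window and 4 of 12 held it, the printed Cxcl3 and Pf4 among them. A match describes letters in a window and not a bound site.

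All 4 markers of the population (Arg1, Fn1, Ccl24, Vegfa) were detected in every library. Arg1 and Fn1 were part of the rule, so their levels are a description. In ipsilateral libraries Arg1 lay at 4725 CPM (labelled Prdx1-/-) and 3462 CPM (labelled WT) at 48 h, and at 5590 and 4280 CPM under the same labels at 24 h. Contralaterally Arg1 lay at 3220 and 2530 CPM at 48 h and 4625 and 5849 CPM at 24 h. The lowest value thus stood in the contralateral WT library at 48 h and the highest in the contralateral WT library at 24 h, and the hemispheres overlapped. Fn1, which encodes the matrix glycoprotein fibronectin, ranged between 2783 and 3508 CPM ipsilaterally and between 1887 and 3807 CPM contralaterally.

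Ccl24, encoding an eosinophil-attracting chemokine known from alternatively activated macrophages, was more variable. It reached 304 and 121 CPM in the 48 h ipsilateral libraries labelled Prdx1-/- and WT, against 775 and 277 CPM in those at 24 h. Contralaterally Ccl24 reached 330 and 45.9 CPM at 48 h, against 455 and 462 CPM at 24 h. Ccl24 was the least uniform of the markers between cells as well. When every cell was thinned to 5000 UMIs, 25.4% and 16.7% of ipsilateral members at 48 h and 43.0% and 23.1% at 24 h had a Ccl24 UMI. In microglial cells of those libraries, which should lack it, 3.07% and 1.50% had one at 48 h, with 1.83% and 2.21% at 24 h. Median depths before thinning were 8880 to 10792 UMIs in those microglial cells and 15173 to 18225 UMIs in those members. Vegfa, outside the rule, ranged between 387 and 666 CPM ipsilaterally and between 321 and 667 CPM contralaterally.

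Other genes linked to alternative activation were unevenly present. Chil3, which encodes a chitinase-like protein, ranged from 3432 to 7027 CPM ipsilaterally. Retnla, a resistin-like gene that usually accompanies Chil3 and Arg1 in interleukin 4 responses, was at 0 in 7 of 8 libraries and at 0.107 CPM in the other. Mrc1, the mannose receptor, ranged from 11.9 to 142 CPM over the 8 libraries. Nos2, which encodes the competing nitric oxide synthase, lay at 14.7 and 3.21 CPM at 48 h and at 30.5 and 21.5 CPM at 24 h in ipsilateral members. Il1b, a pro-inflammatory cytokine, was present throughout, with 5129 and 5066 CPM at 48 h and 11060 and 6736 CPM at 24 h ipsilaterally.

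Markers of other cell types were summed as whole lists. The rule itself limited P2ry12, Siglech, Gpr34, Sparc, Olfml3 and Fcrls (microglia), Csf3r (neutrophils) and Cd3e (T cells). The microglial, neutrophil and T cell sums are therefore in part set by the rule. Microglial transcripts (10 of 10 genes detected) summed to 212 to 441 CPM ipsilaterally and 433 to 651 CPM contralaterally, with the microglial regulator Sall1 at no more than 2.65 CPM. Neutrophil markers (9 of 9) summed to 398 to 2930 CPM ipsilaterally and 190 to 1345 CPM contralaterally. Border macrophage markers (7 of 7) summed to 732 to 3120 CPM ipsilaterally and 605 to 1385 CPM contralaterally, most of it Pf4, while Lyve1 stayed at or under 0.534 CPM. T cell, NK cell and dendritic cell lists summed to at most 4.76, 0.535 and 3.49 CPM. Hemoglobin transcripts summed to between 1690 and 7063 CPM ipsilaterally. Contralaterally they summed to 5649 CPM in the WT library at 48 h and to between 12.2 and 144 CPM in the others. After thinning, 70.0% (Prdx1-/-) and 13.5% (WT) of ipsilateral members from 48 h held an Hbb-bs UMI. For 24 h these shares were 61.7% (Prdx1-/-) and 38.9% (WT). Microglial cells of every one of these libraries had a higher share. Theirs were 75.5% (Prdx1-/-) and 16.5% (WT) for 48 h, then 68.9% (Prdx1-/-) and 50.6% (WT) for 24 h. The source of the hemoglobin transcripts was not tested. Oligodendrocyte markers (4 of 4) reached 1095 CPM in the contralateral WT library at 48 h and at most 96.4 CPM in the other libraries. Cells scored as doublets made up 0 to 13 members per library and were kept.

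Arg1 transcripts were concentrated in these cells. They held 71.9% of the Arg1 UMIs of all cells kept, and cells high in Gpnmb and Fabp5 held a further 16.0%. Of 2647 cells that met the Arg1 limit, 445 failed only the Gpnmb and Fabp5 limit, 91 only the Csf3r limit, 86 only the MHC class II limit, 44 only the microglial limit, 21 only the Cd3e and Cd79a limit and 10 only the requirement for monocyte transcripts. A median member had 56 Arg1 UMIs. The limit did not fall in a gap of the distribution. Next to it, 55 members had between 5 and 6 Arg1 UMIs per 10000, and 64 otherwise eligible cells had between 4 and 5. Ipsilateral cells just inside and just outside the limit had 148 and 26.9 CPM of Ccl24, 675 and 425 CPM of Pf4, and 515 and 585 CPM of Vegfa, with 492 and 652 CPM of the monocyte gene Plac8.

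Arg1 macrophages made up a larger part of the ipsilateral than of the contralateral cells. Ipsilaterally they were 8.18% (exact 95% binomial interval 7.44 to 8.97) of the cells kept in the Prdx1-/- library and 10.5% (9.69 to 11.4) in the WT library at 48 h. At 24 h they were 9.95% (9.18 to 10.8) in the Prdx1-/- library and 2.05% (1.69 to 2.47) in the WT library. Contralaterally they took 1.88% (Prdx1-/-) and 1.01% (WT) of the 48 h cells, with 1.44% (Prdx1-/-) and 0.548% (WT) of the 24 h cells. All 4 ipsilateral shares lay above all 4 contralateral ones, with means of 7.67% ± 3.88 and 1.22% ± 0.570 (SD, n = 4 each). The mean difference was 2.55 on the log2 scale (two-sided exact permutation test, p = 0.0286, the smallest that 4 against 4 libraries allow; adjusted over the 3 comparisons of shares, 0.0857).

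Within the monocyte lineage the picture differed. When the shares were taken of the 7944 cells that passed the limits on monocyte, microglial, Csf3r, Cd3e and Cd79a transcripts (called the monocyte-lineage gate here), Arg1 macrophages made up 23.6% ± 8.36 ipsilaterally and 21.8% ± 13.2 contralaterally (SD, n = 4 each). The hemispheres overlapped, and the mean log2 difference was 0.22 (two-sided exact permutation test, p = 0.657). The gate itself took between 13.7% and 50.4% of ipsilateral cells and between 2.59% and 12.9% of contralateral cells. In matched pairs of libraries neither time (0.83 on the log2 scale, 48 h over 24 h) nor genotype label (1.05, Prdx1-/- over WT) passed for the share of cells kept in the exact permutation test (p = 0.25 each, adjusted 0.25, where 4 pairs cannot go below 0.125). The genotype value was 0.64 without the pair of the 24 h ipsilateral libraries, the pair in which the shares were 9.95% and 2.05%. Taken of the gate, the share leaned the other way with time, at -0.63 (exact permutation test, p = 0.25). The ipsilateral pairs disagreed, with 34.9% at 24 h and 23.5% at 48 h under the Prdx1-/- label, but 15.0% and 20.8% under the WT label. Contralaterally the share was 40.5% at 24 h and 14.5% at 48 h (Prdx1-/-), and 21.1% and 11.1% (WT).

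**Figure D1:**
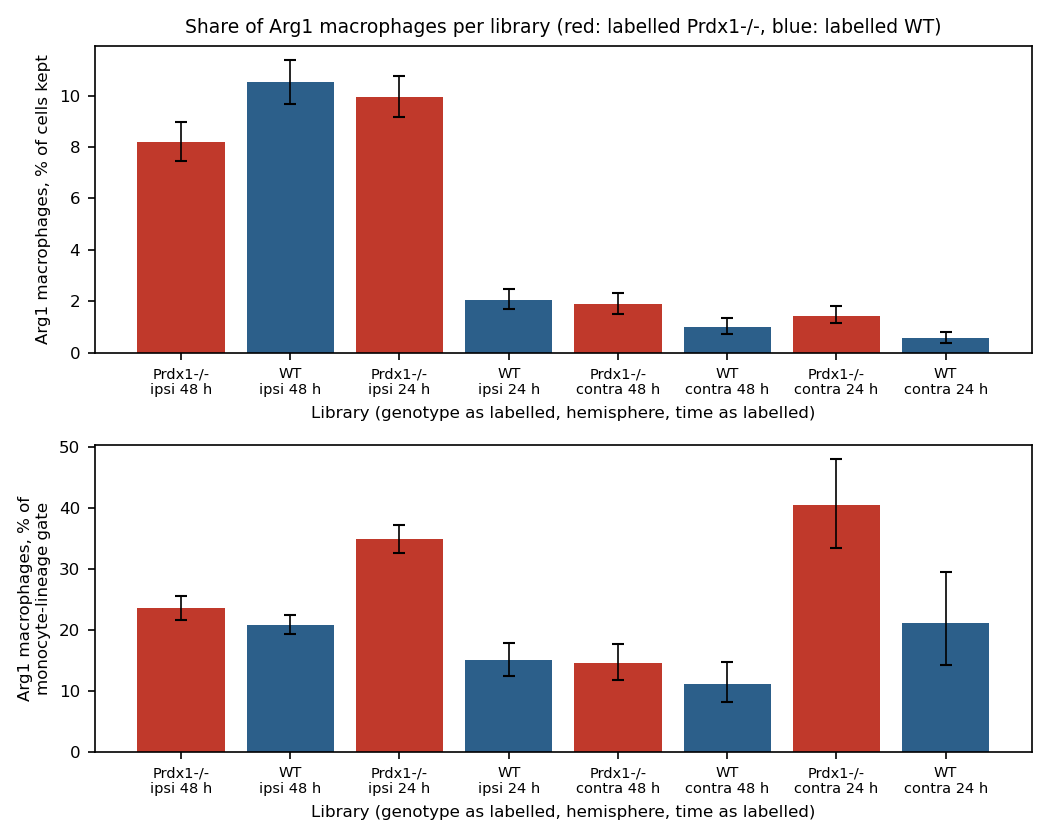
Arg1 macrophages as a percentage of all cells kept (top) and of the monocyte-lineage gate (bottom), 1 bar per library, with exact 95% binomial intervals that cover counting error only. In the top panel the 4 ipsilateral bars, between 2.05% and 10.5%, all stand above the 4 contralateral bars, while in the bottom panel the hemispheres overlap.

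To describe what else the rule picked out, Arg1 macrophages were set against 3868 cells of the same gate that had under 5 Arg1 UMIs per 10000 and met the other limits (Arg1-low cells; 73.3% had no Arg1 UMI). Because the rule chose cells by the same transcripts, these values are a description with no test. Of 5159 genes measured, 25.3% were higher and 27.9% lower in Arg1 macrophages in all 4 ipsilateral libraries. Of 17 chemokine genes measured, 12 were higher in all 4 and 1 lower (Ccl5), with a median log2 ratio of 1.17 against 0.00 over all genes. Ccl24 had log2 ratios between 2.69 and 3.72. Pf4, the platelet factor 4 gene that is also expressed by macrophages, reached 2809 and 1812 CPM in Arg1 macrophages at 48 h and 1347 and 545 CPM at 24 h, against 150 and 201 CPM in Arg1-low cells at 48 h and 158 and 153 CPM at 24 h. The neutrophil attractants Cxcl1 and Cxcl3 were higher by at least 2.10 and 1.49 on the log2 scale in every library. Cxcl14 stood at 109 to 138 CPM in Arg1 macrophages, against 10.7 to 22.1 CPM in Arg1-low cells.

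Genes of low-oxygen responses and of glycolysis moved with the chemokines. In the hypoxia list 14 of 18 measured genes were higher in all 4 libraries, 1 was lower (Ndrg1) and the median log2 ratio was 0.58. Bnip3, a mitophagy gene, was at 79.9 and 65.3 CPM at 48 h and 126 and 77.9 CPM at 24 h in Arg1 macrophages, against 21.8 and 29.5 CPM at 48 h and 36.3 and 26.6 CPM at 24 h in Arg1-low cells. Mif, a cytokine gene of that list, had log2 ratios between 1.09 and 1.58, and Vegfa between 0.67 and 1.22. In the glycolysis list 11 of 17 genes were higher in all 4 libraries and 1 was lower (Pfkp), with a median of 0.64. Gapdh, for example, had log2 ratios between 0.55 and 0.89. Slc2a1, the glucose transporter whose window is printed above, was higher by 0.08 to 0.73.

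Scavenging and efferocytosis genes were also higher on balance, with 10 of 15 higher in all 4 libraries, 1 lower and a median of 0.79. They included Mertk, a receptor for dying cells, at 32.8 to 65.4 CPM in Arg1 macrophages and 18.3 to 31.7 CPM in Arg1-low cells. Spp1, which encodes osteopontin, had log2 ratios between 0.50 and 3.35. Hmox1, which breaks down heme, was higher by 0.45 to 1.86. Among arginine and polyamine genes other than Arg1, 4 of 11 were higher in all 4 libraries (Odc1, Srm, Asl, Oat) and 1 was lower (Sat1). Odc1, the enzyme that turns ornithine into the polyamine putrescine, had ratios between 0.01 and 0.92.

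Monocyte genes ran the other way. Of 15 measured, 14 were lower in Arg1 macrophages in all 4 libraries and none was higher, with a median log2 ratio of -1.27. Plac8 was at 219 and 352 CPM at 48 h and 320.4 and 394 CPM at 24 h in Arg1 macrophages, against 1455 and 1532 CPM at 48 h and 1796 and 1781 CPM at 24 h in Arg1-low cells. Every Arg1 macrophage value thus lay below every Arg1-low value, with log2 ratios between -2.72 and -2.11. Ly6c2, the marker of inflammatory monocytes, had log2 ratios between -2.43 and -1.76. Chil3 was lower too, by -0.92 to -0.47. Antigen presentation genes were lower in 9 of 12 cases and proliferation genes in 5 of 8, with none higher in all 4. Of 11 integrated stress response genes, 6 were lower in all 4 libraries, among them Mthfd2 and Atf4.

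**Figure D2:**
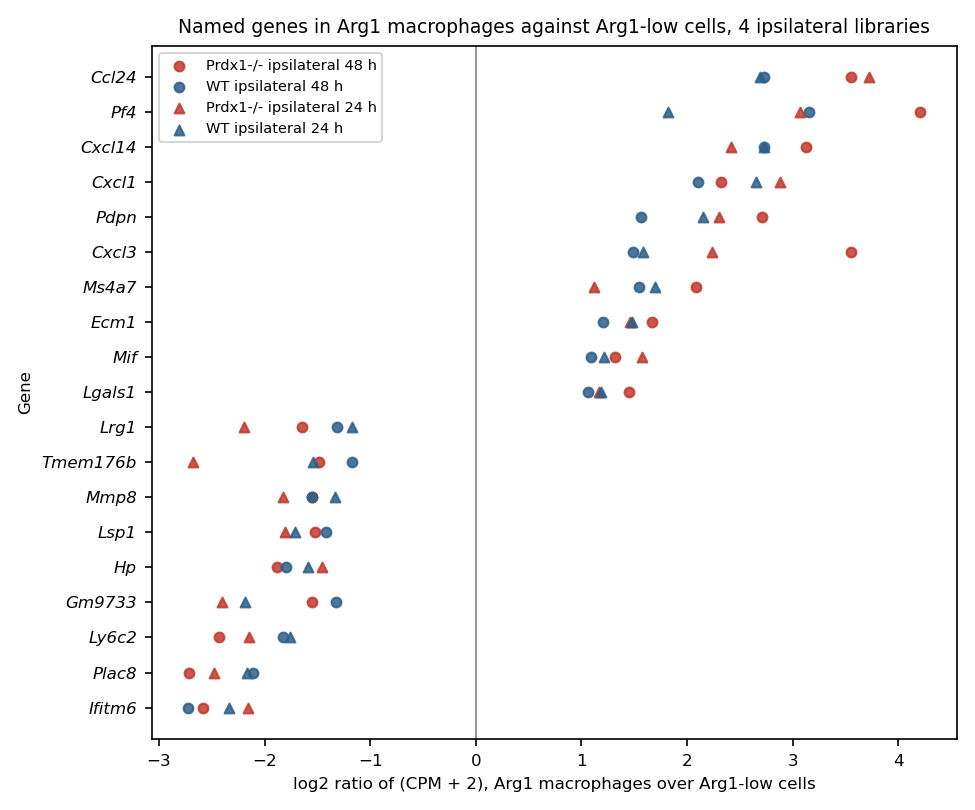
Log2 ratio of CPM plus 2 in Arg1 macrophages over Arg1-low cells for genes named by the rule, 1 point per ipsilateral library. Chemokine genes lie to the right, Ccl24 at 2.69 to 3.72, and monocyte genes to the left, Plac8 at -2.72 to -2.11.

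The cells nearest in Arg1 level were 770 Gpnmb and Fabp5 high cells of the same gate. Against these, 16.8% of 5155 genes were higher and 21.6% lower in Arg1 macrophages in all 4 ipsilateral libraries. Lysosomal genes were lower in 17 of 18 cases, with a median log2 ratio of -0.57. Ctsb, a lysosomal protease, had 2557 and 2831 CPM at 48 h and 1150 and 1444 CPM at 24 h in Arg1 macrophages, against 5612 and 5929 CPM at 48 h and 3032 and 4358 CPM at 24 h in the Gpnmb and Fabp5 high cells. The tetraspanin gene Cd63 and the metalloproteinase inhibitor gene Timp2 were lower by at least 0.95 and 1.71 on the log2 scale in each library. Lipid handling genes were lower in 9 of 17 cases, including Apoe (-0.72 to -0.38) and Trem2 (-0.75 to -0.30). These cells were chosen by Gpnmb and Fabp5, so the direction of genes expressed along with them is in part set by that choice. Glycolysis genes were higher in 12 of 17 cases, by small amounts, with a median log2 ratio of 0.14. Lists that were higher against Arg1-low cells were not all higher here. Chemokine genes were higher in 5 of 16 cases and lower in 4, and hypoxia genes higher in 7 of 18 and lower in 1. Efferocytosis genes were higher in 0 of 16 cases and lower in 8, Mertk among them, with a median of -0.27. Heme and iron genes were higher in 2 of 9 cases and lower in 5, Hmox1 among them. Cxcl14, Il1r2, Hopx, Samsn1, Uck2 and Trem1 led the genes that were higher, after 4 hemoglobin genes, whose source was not tested. In the WT library at 24 h only 15 Gpnmb and Fabp5 high cells were present.

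Against MHC class II high cells of the gate (1453 cells), 34.6% of 5253 genes were higher and 28.2% lower in Arg1 macrophages in all 4 ipsilateral libraries. The 24 h ipsilateral libraries held 315 (Prdx1-/-) and 151 (WT) of these cells, against 51 and 15 Gpnmb and Fabp5 high cells. Such shares also depend on cell numbers, so they do not rank the populations by distance. Matrix and protease genes were higher in 16 of 19 cases and hypoxia genes in 16 of 18. Spp1 reached 4028 and 4297 CPM at 48 h and 5408 and 5948 CPM at 24 h in Arg1 macrophages, against 166 and 550 CPM at 48 h and 278 and 488 CPM at 24 h in the MHC class II high cells. Cd209a, a C-type lectin gene of monocyte-derived dendritic cells, was at 0 in 3 of the 4 ipsilateral libraries of Arg1 macrophages and at 0.320 CPM in the other, against 183 to 246 CPM in the MHC class II high cells. Antigen presentation genes other than the 3 MHC class II genes of the rule were lower in 14 of 15 cases. Members and these cells were split by MHC class II transcripts, so this direction is in part set by the choice of cells.

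Arg1 macrophages also differed among themselves. In each ipsilateral library the upper tertile of members by Arg1 share was set against the lower tertile, again as a description. Median Arg1 per 10000 UMIs was 57.0 to 92.8 in the upper tertile and 8.70 to 18.1 in the lower tertile, at median depths of 16012.5 to 19094 UMIs in the upper tertile and 15295.5 to 17374 UMIs in the lower tertile. Of 5064 genes measured, 8.77% were higher and 16.5% lower in the upper tertile in all 4 libraries. Glycolysis genes were higher in 12 of 17 cases, chemokine genes in 11 of 16 and hypoxia genes in 9 of 18, with none lower in all 4. Ccl24 reached 435 and 215 CPM at 48 h and 1207 and 413 CPM at 24 h in the upper tertile, against 134 and 56.8 CPM at 48 h and 334 and 18.6 CPM at 24 h in the lower tertile. Pf4 had log2 ratios between 0.59 and 2.07. Efferocytosis genes were higher in 3 of 15 cases and lower in 1, and lysosomal genes higher in 2 of 18 and lower in 3. Monocyte genes were lower in 8 of 14 cases and higher in 1, with Plac8 at -1.96 to -0.74 and Ly6c2 at -1.45 to -0.57. Integrated stress response genes were lower in 5 of 9 cases, and Asns, the asparagine synthetase gene, had ratios between -1.17 and -0.85.

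**Figure D3:**
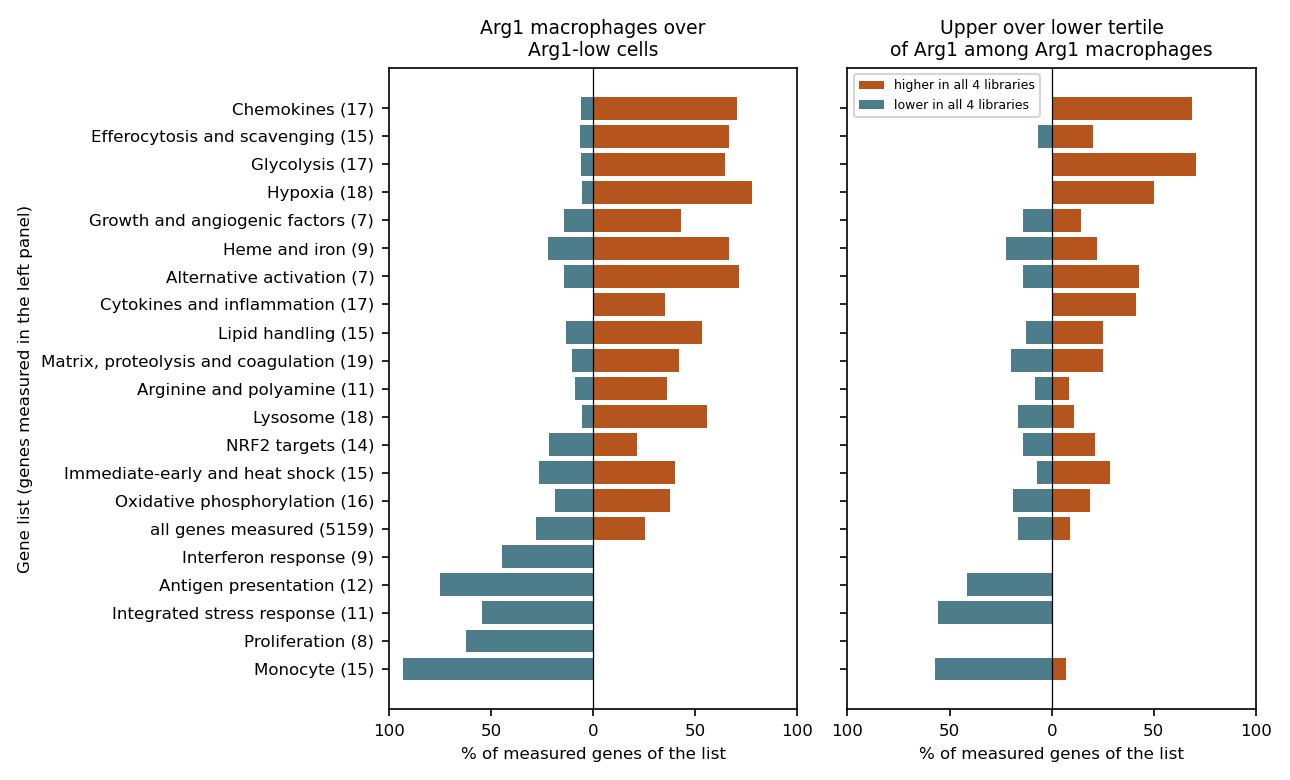
Percentage of the measured genes of each list that were higher (right of 0) or lower (left of 0) in all 4 ipsilateral libraries, for Arg1 macrophages over Arg1-low cells (left panel) and for the upper over the lower tertile of Arg1 within Arg1 macrophages (right panel). Chemokine, glycolysis and hypoxia genes lean to the right in both panels and monocyte genes to the left.

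The transcriptome of Arg1 macrophages differed between 48 h and 24 h in the ipsilateral hemisphere. Counts were summed over members per library and tested with edgeR's quasi-likelihood method over all 8 libraries, with the Benjamini-Hochberg adjustment over 8298 genes and a limit of 0.05. At 48 h 65 genes (0.783%) were higher and 75 (0.904%) were lower. Among the genes higher at 48 h were Syngr1, Ms4a7, Pf4 and 4 of 18 lysosomal genes. Among those lower were 3 of 13 genes of the integrated stress response, which cells switch on when amino acids run short or proteins misfold.

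Among the genes that rose, Syngr1, a synaptogyrin gene, had 87.5 and 136 CPM at 48 h (labelled Prdx1-/- and WT), against 14.4 and 24.4 CPM at 24 h. Its log2 fold change was 2.40 ± 0.173 (SE; edgeR adjusted p = 0.0001), and it passed under all 16 settings tried. Ms4a7, a membrane gene of macrophages that brain-resident microglia lack, reached 264 and 455 CPM at 48 h, against 48.9 and 129 CPM at 24 h, a change of 1.99 ± 0.210 (edgeR adjusted p = 0.00183). Pf4 rose by 1.23 ± 0.237 (edgeR adjusted p = 0.0327) in both pairs. Each of these genes had its lowest ipsilateral 48 h value above its highest 24 h value.

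Lysosomal genes rose in 4 of 18 tested cases (Ctsb, Cd63, Lgmn, Lipa) and none fell, with a median log2 fold change of 0.32 against 0.02 over all genes. Ctsb had 2557 and 2831 CPM at 48 h, against 1150 and 1444 CPM at 24 h, and Lgmn, which encodes the protease legumain, 1846 and 2416 CPM at 48 h, against 770 and 988 CPM at 24 h. Lipid handling genes rose in 3 of 17 cases: Trem2, a lipid-sensing receptor, by 1.13, Abcg1, a cholesterol exporter, by 1.09 and Lipa, lysosomal acid lipase, by 1.07 on the log2 scale. Pltp, a phospholipid transfer protein gene outside that list, rose by 1.60. Apoe had 12078 and 18289 CPM at 48 h, against 4768 and 6344 CPM at 24 h, but did not pass (1.32 ± 0.301; edgeR adjusted p = 0.102). Others that rose were Nrp2, a co-receptor for semaphorins and vascular growth factors (1.05), Cxcl16, a chemokine that is also a scavenger receptor (0.83), and Blvrb, which takes part in heme breakdown (0.72), the only one of 11 heme and iron genes to pass. The marker sums of 2 other macrophage types were higher at 48 h too, and their part in these changes was not tested. Lipid-associated macrophage markers summed to 17498 and 24291 CPM at 48 h, against 10900 and 12998 CPM at 24 h. Apoe, which did not pass, carried the rise in that sum. Gpnmb, Fabp5, Trem2 and Cd63 were also higher at 48 h, while Lpl and Spp1 were lower. Spp1 had 4028 and 4297 CPM at 48 h, against 5408 and 5948 CPM at 24 h. Border macrophage markers summed to 3120 and 2085 CPM at 48 h, against 1495 and 732 CPM at 24 h, with Lyve1 at or near 0 throughout.

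The integrated stress response list had 3 of 13 tested genes lower and none higher, with a median log2 fold change of -0.93. Asns had 4.55 and 3.85 CPM at 48 h, against 24.8 and 62.2 CPM at 24 h, a change of -3.35 ± 0.365 (edgeR adjusted p = 0.00456). Atf5, a transcription factor of this response, fell by 1.96 ± 0.236 (edgeR adjusted p = 0.00317) and Mthfd2, a mitochondrial folate enzyme, by 1.89 ± 0.271 (edgeR adjusted p = 0.0108). Contralateral members showed the same order for Asns, with 2.65 and 0 CPM at 48 h, against 23.0 and 33.3 CPM at 24 h. Ddit3, which encodes the transcription factor CHOP, did not pass and lay on the other side, at 19.5 and 24.3 CPM at 48 h, against 11.7 and 14.0 CPM at 24 h.

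The matrix list had 2 of 22 genes lower, the metalloproteinases Mmp12 and Mmp19. Mmp19 had 66.0 and 77.6 CPM at 48 h, against 172 and 157 CPM at 24 h (-1.36 ± 0.196; edgeR adjusted p = 0.00925). Itga1, a collagen-binding integrin, fell by 1.70, Dgat2, a triglyceride-forming enzyme, by 1.60, and the vitamin D receptor gene Vdr by 1.70. Pfkp, a phosphofructokinase, was the 1 glycolysis gene of 17 to pass, at 59.3 and 54.0 CPM at 48 h, against 126 and 139 CPM at 24 h (-1.35 ± 0.205; edgeR adjusted p = 0.0110). The glycolysis list had a median of -0.67, with Pgk1 at -0.86 (edgeR adjusted p = 0.0631) and Gapdh at -0.73 (edgeR adjusted p = 0.0830). None of 18 hypoxia genes passed, their median being -0.65, and Vegfa stood at 387 and 555 CPM at 48 h, against 666 and 609 CPM at 24 h. Jun was the 1 immediate-early gene of 15 to pass, at -0.88. Among 14 interferon response genes only Ifit3 passed (1.69), at 21.5 and 30.4 CPM at 48 h, against 5.44 and 9.31 CPM at 24 h.

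The counts moved with single libraries. Leaving out 1 of the 4 ipsilateral libraries left 2, 7, 3 and 6 genes higher and 3, 7, 5 and 1 lower (without the 24 h Prdx1-/-, 24 h WT, 48 h Prdx1-/- and 48 h WT library), while leaving out the contralateral 24 h library labelled Prdx1-/- or WT raised them to 224 or 223 higher and 289 or 294 lower. All genes called kept their sign in every one of these fits. A test of whether the change with time differed between hemispheres passed for 2 of 8298 genes, Isg15 and Dmkn.

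**Figure D4:**
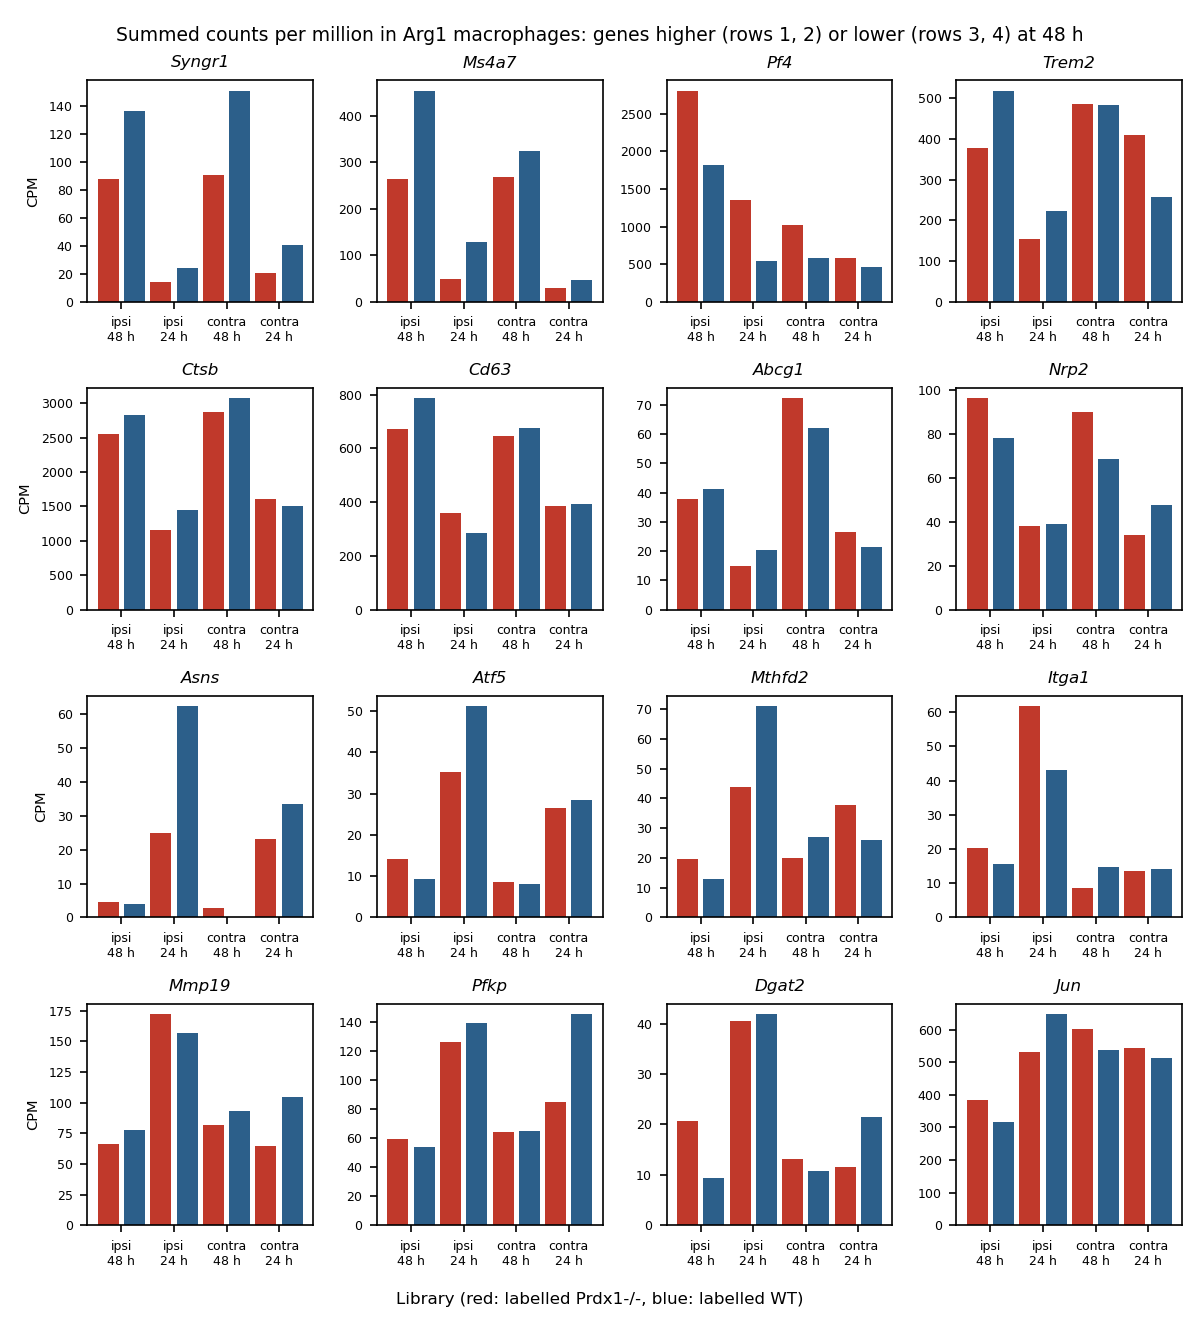
CPM of 16 genes in Arg1 macrophages, 1 bar per library with no replicate error, red for libraries labelled Prdx1-/- and blue for those labelled WT, grouped by hemisphere and time. In the ipsilateral pairs at the left of each panel the 8 genes of the upper rows are higher at 48 h and the 8 of the lower rows lower, with Asns under 5 CPM at 48 h.

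Genotype labels separated few genes. In the ipsilateral hemisphere 1 of 8298 genes (0.0121%) was higher in the libraries labelled Prdx1-/- and 0 were lower by edgeR's quasi-likelihood test, with 105 higher and 81 lower at an unadjusted p under 0.05, and DESeq2 gave 4 higher and 1 lower. That gene was Il6, which encodes the inflammatory cytokine interleukin 6. It reached 69.4 CPM in the library labelled Prdx1-/- and 8.13 CPM in the library labelled WT at 48 h, and 119 and 13.4 CPM under the same labels at 24 h. The log2 fold change was 3.15 ± 0.256 (SE; edgeR adjusted p = 0.000262), and Il6 passed under all 16 settings tried, with adjusted p up to 0.0268. Contralaterally Il6 lay at 28.5 and 26.4 CPM under the Prdx1-/- label at 48 h and 24 h, against 10.8 and 23.8 CPM under the WT label. The Prdx1-/- libraries lay above the WT libraries in both hemispheres, by less contralaterally. The contralateral values rest on few UMIs. At 48 h there were 43 UMIs in 9 members (Prdx1-/-) and 8 UMIs in 1 member (WT). At 24 h there were 39 UMIs in 8 members (Prdx1-/-) and 10 UMIs in 5 members (WT). The share of contralateral members with an Il6 UMI at 24 h was higher under the WT label, at 19.2% against 10.7%. With any 1 library left out, between 1 and 11 genes were higher, Il6 always among them, and 0 to 2 were lower. A test of whether the Il6 difference was larger ipsilaterally did not pass (interaction 2.49 ± 0.506; edgeR adjusted p = 0.355).

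Il6 came from a part of the cells. At 48 h ipsilaterally 549 Il6 UMIs lay in 63 of 413 members in the Prdx1-/- library and 76 UMIs in 30 of 540 members in the WT library. At 24 h 1115 UMIs lay in 146 of 567 members under the Prdx1-/- label and 23 UMIs in 9 of 109 members under the WT label. The 10 cells richest in Il6 held 51.6% of these UMIs at 48 h and 28.6% at 24 h under the Prdx1-/- label. In Arg1-low cells of the same libraries Il6 lay at 27.9 CPM (Prdx1-/-) and 16.0 CPM (WT) at 48 h and at 28.7 and 27.5 CPM at 24 h. In Gpnmb and Fabp5 high cells it lay at 13.3 CPM (Prdx1-/-, 122 cells) and 5.19 CPM (WT, 492 cells) at 48 h. At 24 h it lay there at 102 CPM (Prdx1-/-, 51 cells) and 8.36 CPM (WT, 15 cells). The values under the Prdx1-/- label were thus the higher ones there too. However, the 102 CPM came from 10 cells and the 8.36 CPM from 2 UMIs. In MHC class II high cells Il6 lay at 8.62 CPM (Prdx1-/-) and 8.68 CPM (WT) at 48 h and at 17.6 and 15.6 CPM at 24 h. In microglial cells it lay at 7.91 and 8.37 CPM at 48 h and at 8.89 and 10.3 CPM at 24 h, with an Il6 UMI in 3.85% to 7.62% of cells, against 5.56% to 25.7% of Arg1 macrophages, which were sequenced more deeply. Within the Arg1 macrophages Il6 was higher in the upper Arg1 tertile in all 4 libraries, for example 131 CPM in the upper and 23.7 CPM in the lower tertile at 48 h under the Prdx1-/- label.

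Tnf, which encodes tumour necrosis factor, had 259 and 196 CPM at 48 h and 24 h in the ipsilateral libraries labelled Prdx1-/-, against 120 and 90.7 CPM under the WT label, and did not pass (1.11 ± 0.178; edgeR adjusted p = 0.0903). It passed in 7 of 16 settings. Cxcl3 (1.76 ± 0.513) and Ccl2 (1.18 ± 0.485) were higher under the Prdx1-/- label in both pairs without passing, and 0 of 16 chemokine genes passed, with a list median of 0.60 against -0.01 over all genes. Cxcr4, a receptor for Cxcl12, had 146 and 65.4 CPM under the Prdx1-/- label at 48 h and 24 h, against 253 and 124 CPM under the WT label, and did not pass (-0.84; edgeR adjusted p = 0.294). None of 14 genes of the antioxidant NRF2 programme passed (median 0.23). Other cell types' markers differed between the labels too. Neutrophil markers summed to 2930 and 1072 CPM under the Prdx1-/- label at 48 h and 24 h, against 398 and 1345 CPM under the WT label, with an S100a8 UMI in 80.2% of thinned members and 82.2% of thinned microglial cells of the 48 h Prdx1-/- library. Leaving out members with 20 or more S100a8 and S100a9 UMIs per 10000 kept Il6 among 2 genes called.

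Ipsilateral members had more Il10, Tnf, Fosl1, Arg2, Srxn1 and Id3 transcripts and fewer Clec12a transcripts than contralateral ones. Ccl24 and Vegfa did not pass (log2 fold changes of 0.15 ± 0.442 and 0.31 ± 0.189, ipsilateral over contralateral), and Arg1 and Fn1, which the rule used, had values of 0.20 ± 0.178 and 0.07 ± 0.197. Over 8298 genes 29 (0.349%) were higher and 13 (0.157%) lower in ipsilateral members in the additive edgeR fit. Il10, an anti-inflammatory cytokine gene, reached 34.1 and 21.3 CPM at 48 h and 41.7 and 5.23 CPM at 24 h ipsilaterally, against 3.31 and 1.35 CPM at 48 h and 3.39 and 0 CPM at 24 h contralaterally (3.66 ± 0.537; edgeR adjusted p = 0.0236). Its contralateral values rest on 5 and 1 UMIs at 48 h and 5 and 0 UMIs at 24 h. Ipsilaterally it came from 39 of 413 and 47 of 540 members at 48 h and from 52 of 567 and 2 of 109 members at 24 h, the last with 9 UMIs, and the 10 richest cells of a library held 58.8% to 100% of its Il10 UMIs. Tnf was higher as well, by 1.25 ± 0.158 (edgeR adjusted p = 0.00567), so 2 of 18 cytokine genes rose. Its values overlapped between hemispheres, at 90.7 to 259 CPM ipsilaterally and 48.5 to 96.7 CPM contralaterally. Microglial cells held more Tnf, at 1090 to 1699 CPM ipsilaterally and 267 to 645 CPM contralaterally, and their part in this difference was not tested.

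Fosl1, an AP-1 subunit, rose by 2.72 ± 0.365 (edgeR adjusted p = 0.00885). Arg2, the mitochondrial arginase and the 1 arginine and polyamine gene of 15 to pass, had 95.8 and 96.8 CPM at 48 h and 136 and 81.4 CPM at 24 h ipsilaterally, against 28.5 and 37.8 CPM at 48 h and 26.4 and 35.7 CPM at 24 h contralaterally. Srxn1, sulfiredoxin, which restores over-oxidised peroxiredoxins, was the 1 NRF2 gene of 14 to pass, with 98.6 and 97.1 CPM at 48 h and 76.3 and 55.2 CPM at 24 h ipsilaterally, against 34.4 and 36.4 CPM at 48 h and 17.6 and 11.9 CPM at 24 h contralaterally (1.75 ± 0.191; edgeR adjusted p = 0.00485). Id3, an inhibitor of helix-loop-helix transcription factors, rose by 1.57 and Crem, a cyclic AMP responsive factor, by 1.32. For each of these genes every ipsilateral library lay above every contralateral one. Srxn1 and Id3 passed under all 16 settings tried.

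Clec12a, an inhibitory lectin receptor of myeloid cells, was lower in ipsilateral members, at 21.1 and 20.8 CPM at 48 h and 16.3 and 22.7 CPM at 24 h, against 42.4 and 52.6 CPM at 48 h and 79.3 and 28.6 CPM at 24 h contralaterally (-1.39 ± 0.243; edgeR adjusted p = 0.0363). Naaa, a lysosomal amidase gene, and Tubb5, a tubulin gene, fell by 1.01 and 0.76. With the hemispheres paired by label and time, Clec12a and Tubb5 no longer passed (edgeR adjusted p = 0.0552 and 0.0591). None of 18 hypoxia genes and none of 17 glycolysis genes passed, with list medians of 0.17 and 0.12 against -0.02 over all genes. Contralateral libraries held 26 to 81 members, and the counts moved with them. Leaving out the 48 h contralateral library labelled Prdx1-/- left 4 genes higher and 0 lower, and the 48 h contralateral WT library 35 and 8. Without the 24 h contralateral WT library 58 were higher and 25 lower. Without the ipsilateral libraries labelled Prdx1-/- 8 and 1 passed (48 h) or 10 and 6 (24 h), and without the 24 h ipsilateral WT library 26 and 3. Microglial transcripts, summed above, were higher in contralateral members, and their part in these differences was not tested.

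**Figure D5:**
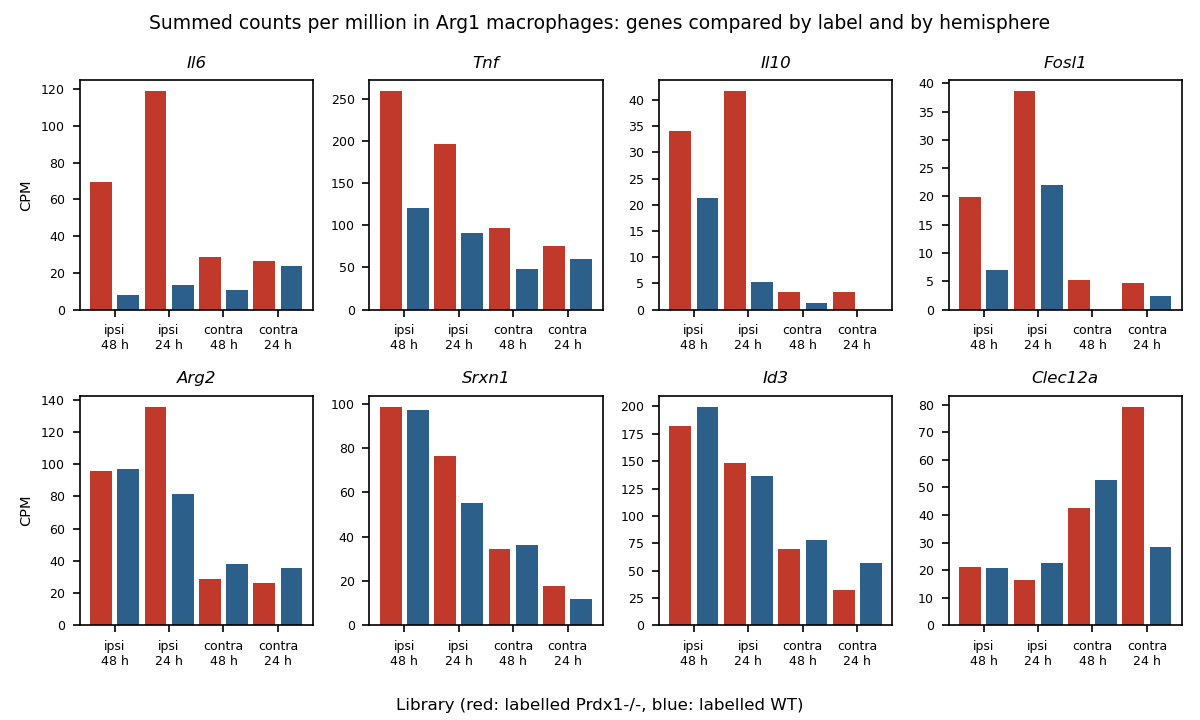
CPM of 8 genes in Arg1 macrophages, 1 bar per library with no replicate error, red for libraries labelled Prdx1-/- and blue for those labelled WT. The ipsilateral Il6 bars stand at 69.4 and 119 CPM under the Prdx1-/- label and at 8.13 and 13.4 CPM under the WT label, and Arg2, Srxn1 and Id3 are higher in the 4 ipsilateral than in the 4 contralateral libraries.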

How the data were processed

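Single cells were measured with 10x Genomics 3′ libraries, per the labels' protocols. The authors deposited raw UMI counts per gene and cell, 1 table of 20340 genes per library. Per the submitters' processing notes, Cell Ranger and Seurat were used with mm10. The filters used before deposit are not given in the sources used here. Members were selected and counts summed per library with Python 3.11.15 and scipy 1.17.1. Sums were tested with edgeR 4.0.16 (TMM, filterByExpr, robust quasi-likelihood) in R 4.3.3. The contrasts of time and of genotype label were taken within the ipsilateral hemisphere, in fits with hemisphere, time and label in which contralateral libraries add to the estimate of spread. CPM is the summed count per 1000000 UMIs of the members of a library, and population ratios used CPM plus 2. Shares were compared by exact permutation tests and carry exact binomial intervals (Clopper-Pearson, 95%), which cover counting error only.

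The member rule and gene lists were chosen with earlier results of these data known. Named genes passed adjusted p 0.05, had a mean ipsilateral CPM of at least 20 and the same sign in both ipsilateral pairs, and were the 10 largest per direction plus up to 3 per list, or the 3 smallest p where fewer passed. For populations they had at least 100 CPM in the higher one and were ranked by the smallest of the 4 ratios; 1 gene so named is not reported here. Genes outside these rules, such as Ifit3, Isg15, Dmkn, Ddit3, Apoe, Cxcl3 and Ccl2 in the tested contrasts, were chosen as list members or after their values were seen. On simulated counts of 8298 genes, with 100 genes changed by each size, the fit recovered 71% of changes of 1 log2 unit for time, 56% for genotype label and 91% for hemisphere. For changes of 2 log2 units it recovered 98%, 99% and 98%. At the adjusted limit of 0.05 it also called 22 unchanged genes for time, 24 for genotype label and 15 for hemisphere. In these runs unchanged genes thus made up a larger part of the calls than the limit names. The simulated spread came from the hemisphere fit for every contrast, so the rates for time and label are approximate. Doublets were scored, not removed, in the main analysis.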

Additional observations from a re-analysis of the deposited data

Results flagged for a closer look

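For 2 genes the change between 48 h and 24 h in Arg1 macrophages differed between the hemispheres, by the interaction term of edgeR's quasi-likelihood fit over 8298 genes. Isg15, which encodes an interferon-induced ubiquitin-like protein, had 169 and 222 CPM at 48 h (labelled Prdx1-/- and WT) and 174 and 182 CPM at 24 h ipsilaterally. Contralaterally it had 405 and 596 CPM at 48 h, against 71.8 and 57.1 CPM at 24 h, and the ipsilateral minus the contralateral log2 change was -2.80 ± 0.297 (edgeR adjusted p = 0.00555).

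Dmkn, which encodes the secreted protein dermokine, had 52.1 and 38.2 CPM at 48 h, against 82.9 and 89.6 CPM at 24 h, ipsilaterally. Contralaterally it lay on the other side, at 84.8 and 76.9 CPM at 48 h, against 20.3 and 26.2 CPM at 24 h. The ipsilateral minus the contralateral log2 change was -2.88 ± 0.321 (edgeR adjusted p = 0.00555), and both libraries of each hemisphere moved the same way. The contralateral values come from 26 to 81 members a library.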

How the results depend on the processing

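With time, 224 genes were higher and 287 lower with no filter on low counts, and 324 and 433 in the 4 ipsilateral libraries alone. By genotype label the counts were 4 higher and 1 lower with DESeq2, 34 and 10 with no filter, and 49 and 12 in the ipsilateral libraries alone. With Arg1 at 10 or more per 10000, without doublets and without members rich in neutrophil transcripts (an alternative chosen after seeing the data), 3, 2 and 2 were higher. Ipsilateral over contralateral, DESeq2 gave 75 higher and 35 lower, no filter 403 and 143, and the Arg1 limit of 10 gave 18 and 4. The time difference in share was -0.63 when taken of the monocyte-lineage gate. Leaving out 1 library at a time gave 2 to 224 genes higher and 1 to 294 lower with time, 1 to 11 higher and 0 to 2 lower by label, and 4 to 58 higher and 0 to 25 lower by hemisphere. The same step gave share differences of 2.21 to 3.10 (hemisphere), 0.33 to 1.21 (time) and 0.64 to 1.52 (label). The cause of these shifts was not tested. Of the values of the 32 genes named for time under other settings, 373 kept their side of the threshold and 139 did not, and for hemisphere 182 of the 15 genes' values did and 58 did not, all in the main direction. The labels do not say whether hemispheres come from the same animals. With a replicate block that paired them by label and time (chosen after seeing the data), 24 genes were higher and 9 lower, 22 and 7 of them shared with the unpaired fit, and the paired share difference of 2.55 had an exact permutation p of 0.125, the smallest that 4 pairs allow. The 26 to 81 contralateral members per library limit the precision there.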
